A study of Mus musculus with 6 samples.

Results

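Wild-type lymphoid-primed multipotent progenitors were compared with the wild-type stem cell fraction from which they are set apart by surface FLT3. The comparison took 4 of the 6 arrays of the study: 2 of WT LMPP and 2 of WT LSK FLT3-, chosen by sample title. Both fractions were sorted by flow cytometry from bone marrow of adult C57bl/6 mice without engineered alleles or treatment, and both were negative for lineage markers and positive for SCA1 and KIT. WT LMPP had high surface FLT3, and WT LSK FLT3- had none. The other 2 arrays held LMPP of E2A-KO mice on the same background, and here they entered the shared estimate of the spread, the quantile normalization and the choice of a probe set for each gene. RNA was amplified in a small-sample protocol and hybridised to Affymetrix 3' arrays, and what was deposited is 1 linear intensity per probe set, used here as log2. No label ties the 2 arrays of a fraction to different animals or sorting days, so the p-values reflect how far these arrays differ and that may be a technical spread. In bulk RNA, fewer cells of a type and less RNA per cell cannot be told apart.

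Blood formation starts from rare stem cells that self-renew and feed every lineage. Cells that are lineage-negative and positive for SCA1 and KIT hold these stem cells together with multipotent progenitors. Gain of the FLT3 receptor marks progenitors that have lost long-term repopulation and most megakaryocyte and erythroid output while they keep lymphoid and granulocyte-monocyte potential. A comparison of the FLT3-high cells with the FLT3-negative cells therefore sets an early step of lineage restriction on a genome-wide scale.

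Of 18194 genes with a probe set of a single symbol, 6198 passed an adjusted p of 0.05 on the deposited values (34.1% of genes), 1889 higher (10.4%) and 4309 lower (23.7%) in WT LMPP. After quantile normalization of the 6 arrays, 3496 passed (19.2%), 1656 higher (9.1%) and 1840 lower (10.1%). On both scales and in the same direction, 1076 genes were higher (5.91% of all genes) and 1792 lower (9.85%), and no gene passed in opposite directions (0 genes). The shares of 5.91% and 9.85% are the background for list members below that passed on both scales. Member counts on deposited values alone are to be read against 10.4% higher and 23.7% lower. Those after quantile normalization alone are to be read against 9.1% and 10.1%. In the rest of the text, "rose" and "fell" are used of a gene that passed on both scales, higher or lower in WT LMPP than in WT LSK FLT3-. Differences are on the log2 scale from deposited values unless the quantile-normalized scale is named, SEs come from limma's moderated fit and adjusted p-values from its Benjamini-Hochberg adjustment over all genes.

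The scale matters because the value distributions of the fractions differ in shape. The upper quartile was 5.80 and 5.82 on the WT LMPP arrays and 6.13 and 6.15 on the WT LSK FLT3- arrays, while the medians were 4.01 and 4.01 against 3.91 and 3.90. Among the dimmest of 5 level classes 92.7% of called genes were higher in WT LMPP on deposited values, and among the brightest 11.8%; after quantile normalization the shares were 49.4% and 46.1%. The share of higher genes among all called was 30.5% deposited, 47.4% quantile-normalized and 17.8% after centring on array medians, where the median difference of all genes moved from -0.01 to -0.12. Arrays of the same fraction correlated at 0.989 (WT LMPP) and 0.996 (WT LSK FLT3-), and arrays of different fractions at 0.969 to 0.972, over probe sets. Leaving out WT LSK FLT3- replicate 1 or 2 brought the deposited count from 6198 to 2370 or 2449 genes.

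**Figure D1:**
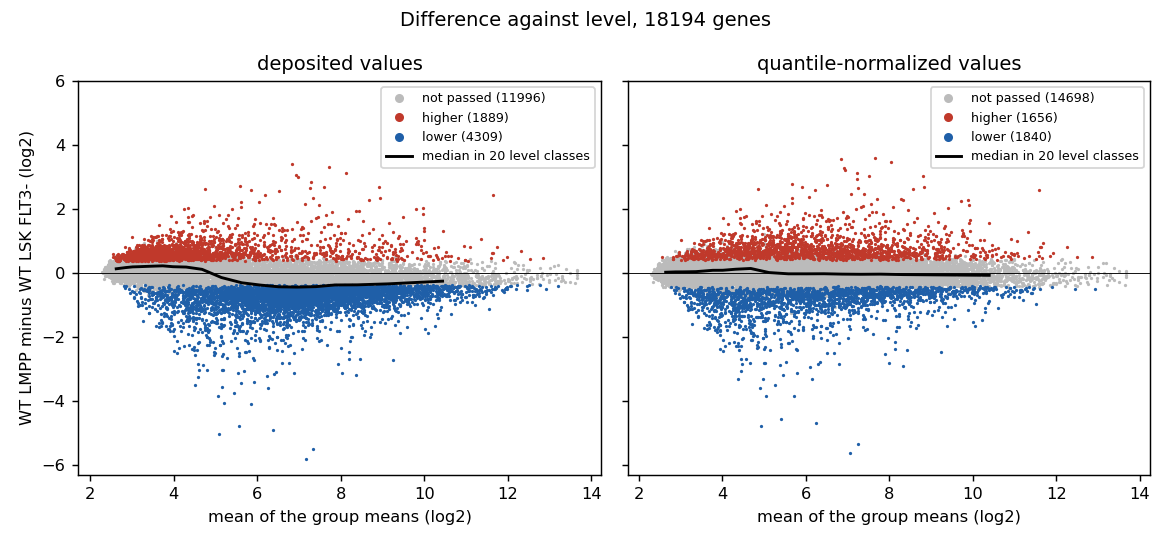
Difference between WT LMPP and WT LSK FLT3- (log2, y axis) against the mean level of a gene (log2, x axis) for 18194 genes, on deposited values (left) and after quantile normalization (right). Each point is a gene, coloured by its call, and the line is the median in level classes; on the left the line lies above 0 for dim genes and below 0 for brighter ones, and on the right it stays close to 0.

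The sorted fractions were described by marker genes. These were chosen with earlier results of these data known, so their counts are no independent check. Flt3, the receptor of the gate, read 8.87 and 8.76 on the WT LSK FLT3- arrays and 10.80 on both WT LMPP arrays. Its transcript was thus present at a sizeable level in cells sorted for the absence of the protein on the surface. Kit, the other gate gene measured, read 10.06 and 10.38 in WT LSK FLT3- and 9.05 and 8.91 in WT LMPP, although both fractions were sorted as KIT-positive. Since the gate used both proteins, these values are a description. Of 9 stem cell markers measured, 8 fell; the ninth, Fgd5, fell on deposited values only (-0.92, adjusted p = 0.00751; quantile-normalized -0.59, adjusted p = 0.0767). All 6 LMPP markers measured were higher on both scales: Flt3 (itself a gate gene), Dntt, Il7r, Ccr9, Notch1 and Ctss.

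The promoters of 3 of the gene groups below are shown first, each by 2 members with the largest change among those whose window holds a match to the motif named. The windows run from 250 bases before to 50 bases after the start site in the RefSeq table of GRCm38.p6 and are printed 5′ to 3′ on the strand of the gene, with motif matches on either strand in capitals. The first pair belongs to the MHC class II genes that rose, with the letters ATTGG (an inverted CCAAT, the Y box of class II promoters) or their reverse complement in capitals. H2-Eb1 is on the plus strand at chr17:34305617-34305916 and H2-Aa on the minus strand at chr17:34287774-34288073.
H2-Eb1: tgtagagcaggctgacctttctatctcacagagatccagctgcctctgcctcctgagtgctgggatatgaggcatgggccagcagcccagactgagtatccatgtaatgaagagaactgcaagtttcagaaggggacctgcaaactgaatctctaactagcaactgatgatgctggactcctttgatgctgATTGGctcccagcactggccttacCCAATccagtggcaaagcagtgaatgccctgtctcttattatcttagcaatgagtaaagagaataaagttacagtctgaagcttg
H2-Aa: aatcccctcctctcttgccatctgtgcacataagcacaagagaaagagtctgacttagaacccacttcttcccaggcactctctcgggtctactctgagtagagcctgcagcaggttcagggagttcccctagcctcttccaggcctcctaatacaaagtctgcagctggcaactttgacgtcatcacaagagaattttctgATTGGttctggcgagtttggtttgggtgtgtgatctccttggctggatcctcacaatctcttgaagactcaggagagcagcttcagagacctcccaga

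The mitotic genes that rose are represented by Bub1b (plus strand, chr2:118597961-118598260) and Ttk (plus strand, chr9:83834439-83834738). Capitals mark TTTGAA or TTCGAA on either strand, the letters of the cell cycle homology region (CHR) found near the start of many genes of the late cell cycle.
Bub1b: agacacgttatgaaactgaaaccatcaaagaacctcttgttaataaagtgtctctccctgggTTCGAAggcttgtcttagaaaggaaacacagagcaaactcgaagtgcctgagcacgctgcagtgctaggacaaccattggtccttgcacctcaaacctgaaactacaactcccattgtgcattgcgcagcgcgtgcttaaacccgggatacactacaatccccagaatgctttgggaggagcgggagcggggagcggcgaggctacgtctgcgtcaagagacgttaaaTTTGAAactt
Ttk: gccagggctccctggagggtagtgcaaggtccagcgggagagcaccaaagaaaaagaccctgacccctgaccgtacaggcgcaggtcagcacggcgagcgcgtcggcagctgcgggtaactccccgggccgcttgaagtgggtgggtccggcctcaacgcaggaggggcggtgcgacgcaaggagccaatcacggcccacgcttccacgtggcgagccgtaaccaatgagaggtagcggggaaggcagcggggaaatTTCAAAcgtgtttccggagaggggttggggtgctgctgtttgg

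The erythroid genes that fell are represented by Hemgn (minus strand, chr4:46404134-46404433) and Klf1 (plus strand, chr8:84901732-84902031). Capitals mark AGATAA or TGATAA on either strand, letters that GATA factors are known to bind.
Hemgn: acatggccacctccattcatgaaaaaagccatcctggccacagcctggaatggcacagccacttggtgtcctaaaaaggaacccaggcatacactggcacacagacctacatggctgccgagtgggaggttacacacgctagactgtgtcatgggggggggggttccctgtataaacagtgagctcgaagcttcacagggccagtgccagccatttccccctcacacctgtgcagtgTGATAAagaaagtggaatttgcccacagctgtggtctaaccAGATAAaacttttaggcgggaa
Klf1: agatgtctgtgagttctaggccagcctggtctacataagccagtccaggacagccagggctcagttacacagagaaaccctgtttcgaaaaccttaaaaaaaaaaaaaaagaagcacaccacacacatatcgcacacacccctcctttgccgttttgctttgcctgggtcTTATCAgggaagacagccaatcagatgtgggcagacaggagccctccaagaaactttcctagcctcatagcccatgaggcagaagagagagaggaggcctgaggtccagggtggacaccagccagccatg

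The ATTGG letters were in 6 of 7 MHC class II promoters matched (85.7%), against 38.2% of the 14453 tested genes with a window in the table. The CHR letters were in 16 of 21 promoters of the mitosis list (76.2%), against 15% of tested genes, and GATA letters were in 9 of 17 erythroid promoters (52.9%), against 12.8%. Over all genes that rose or fell, the shares stayed near those of the tested genes: 17.6% of promoters of genes that rose and 11.9% of those that fell held CHR letters, and 13.2% and 11.7% held GATA letters. The lists were drawn up from known biology, which includes what binds these promoters, and a match is a description, not a site.

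The largest falls joined genes of very different cell types. Igha, the constant region of the IgA heavy chain, had the largest fall of all, from 9.97 and 10.13 in WT LSK FLT3- to 4.03 and 4.5 in WT LMPP (55.4-fold). Tgm2, a transglutaminase that crosslinks proteins, read 10.15 and 10.02 against 4.51 and 4.65 (45.3-fold). Slc18a2, the vesicular monoamine transporter, read 7.53 and 7.64 against 2.63 and 2.51 (32.3-fold). All 3 genes dropped to or near the array median of about 4 in WT LMPP, so their folds rest on values in the compressed low range of the array. The imprinted adaptor gene Grb10 read 8.80 and 8.84 against 3.97 and 3.89 (29.6-fold). Jchain, which joins IgA and IgM multimers, read 7.83 and 8.05 against 3.32 and 3.02 (27.3-fold). Next came Car1 (17-fold), a red cell carbonic anhydrase, and Aldh1a1 (16.8-fold), the retinaldehyde dehydrogenase. Dach1, a transcriptional cofactor, followed at 14.3-fold, Cpa3, the mast cell carboxypeptidase, at 13.4-fold, and Apoe, the lipid carrier, at 12-fold. Slit2, a secreted guidance ligand, fell 11.8-fold and Hnmt, which inactivates histamine, 10.8-fold.

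The largest rises were smaller than the largest falls. Plbd1, a phospholipase B-like protein of myeloid cells, had the largest rise, from 5.13 and 5.15 to 8.69 and 8.38 (10.5-fold). Wfdc17, a secreted inhibitor of the WAP family, rose from 6.14 and 6.00 to 9.37 and 9.40 (9.92-fold). Mpeg1, the pore-forming protein perforin-2 of macrophages, rose from 6.50 and 6.62 to 9.76 and 9.61 (8.74-fold). Il7r, the receptor that early lymphoid cells depend on, rose from 5.43 and 5.37 to 8.24 and 8.70 (8.41-fold). None of these 4 genes was near the median in WT LMPP. Only genes without overlap between the arrays of the fractions entered this ranking, so their lack of overlap is no separate result. On both scales 214 genes were at least 2-fold higher and 487 at least 2-fold lower. Among the 25 largest rises were also Emp1, an epithelial membrane protein (5.11-fold), Btla, an inhibitory receptor of lymphocytes (5.06-fold), the transcriptional coactivator Mn1 (4.35-fold) and Ddx4, a helicase known from germ cells (4.43-fold).

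**Figure D2:**
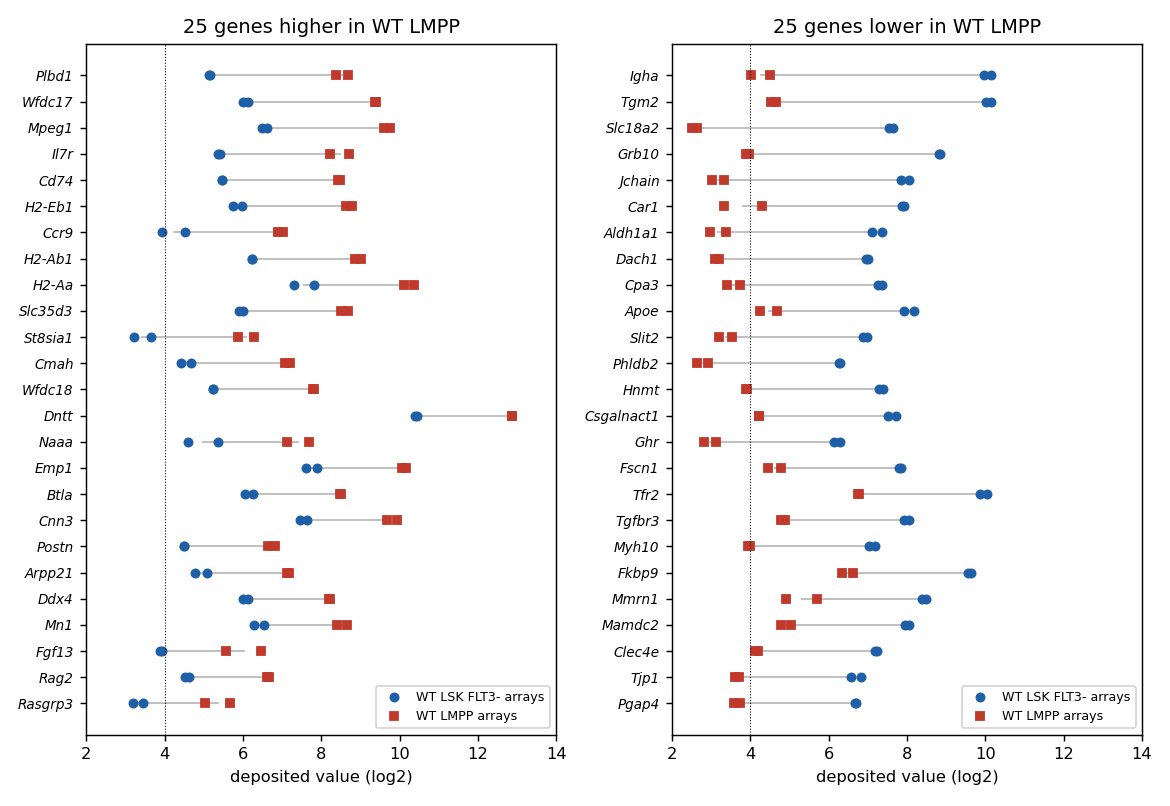
Deposited values (log2, x axis) of the 25 genes with the largest rise (left) and the 25 with the largest fall (right) among genes past the threshold on both scales without overlap. Each circle is a WT LSK FLT3- array, each square a WT LMPP array, lines join the group means and the dotted line lies near the array median; most genes that fell reach that line or lie below it in WT LMPP, whereas most that rose start above it in WT LSK FLT3-.

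Of 19 genes for surface proteins of stem and progenitor cells, 8 fell and 4 rose, and 7 did not pass after quantile normalization, with a median difference of -0.42 (quantile-normalized -0.36), against -0.01 (0.03) for all genes. Tek, the angiopoietin receptor TIE2, read 6.00 and 6.21 in WT LSK FLT3- and 3.12 and 3.07 in WT LMPP, a fall of 8.07-fold (SE 0.15, adjusted p = 6.68e-06). Esam, an adhesion molecule shared with endothelium, read 7.05 and 6.84 against 4.61 and 4.32 (5.57-fold, SE 0.15, adjusted p = 1.96e-05). Procr, the protein C receptor EPCR, stayed well above the median in WT LMPP, with 9.18 and 9.20 against 6.76 and 6.92 (5.09-fold, SE 0.13, adjusted p = 1.4e-05). Slamf1, the CD150 of the stem cell sort, read 4.98 and 4.57 against 3.08 and 3.25. Cd9, Vcam1, Prom1 and Thy1 also fell, by 2.17- to 4.58-fold. The 4 that rose were Cd53 (2.13-fold), a tetraspanin of leukocytes, Cd93 (1.87-fold), Cd47 (1.75-fold), the signal that restrains phagocytes, and Cd34 (1.38-fold), the sialomucin of progenitors. Cd34 did not pass when any of the 4 arrays was left out (adjusted p from 0.053 to 0.16), and another Cd47 probe set was lower in WT LMPP (-1.02, adjusted p = 0.00336).

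Of 24 transcription factor genes of stem cells measured, 14 fell and 2 rose, and 7 did not pass after quantile normalization (median -1.13; quantile-normalized -0.86). Gata2, needed for stem cell survival, read 9.24 and 9.47 in WT LSK FLT3- and 6.49 and 6.57 in WT LMPP (7.1-fold, SE 0.14, adjusted p = 7.6e-06). Hlf, a bZIP factor of stem cells, read 10.37 and 10.48 against 8.90 and 8.60 (3.19-fold). Mecom, which encodes EVI1, read 9.45 and 9.63 against 8.13 and 7.93 (2.85-fold). These last 2 genes thus remained well above the array median in WT LMPP. Mycn fell 3.67-fold, Zfpm1 (the GATA partner FOG1) 4.85-fold, Gfi1b 2.98-fold, Zfp521 2.73-fold, Fli1 2.56-fold, Tal1 2.29-fold and Meis1 2.09-fold. Taken as the mean of all its probe sets, Meis1 did not pass (-0.257, adjusted p = 0.2). Prdm16 read 7.64 and 7.71 against 5.19 and 6.18, with its WT LMPP arrays far apart and another of its probe sets higher in WT LMPP (0.67, adjusted p = 0.0171). Other members of the same network differed little: Hoxa9 by -0.12 (SE 0.13), Lmo2 by -0.13 (SE 0.16) and Lyl1 by -0.20 (SE 0.13), none past the threshold on either scale. The 2 that rose, Hoxb4 (0.56) and Hmga2 (0.53), did not pass without WT LSK FLT3- replicate 1 (adjusted p = 0.132 and 0.0852).

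Among Hox genes, 29 of 36 did not pass on deposited values, 4 rose and 1, the antisense gene Hoxb5os, fell. Hoxa5 read 7.36 and 7.12 against 8.23 and 8.02, a rise of 1.85-fold that did not pass without WT LSK FLT3- replicate 2 (adjusted p = 0.0721). Hoxc6 rose by 1.22. On deposited values 6 were higher, and 2 or 1 without WT LSK FLT3- replicate 1 or 2. A total of 23 Hox genes were below the array median in both fractions.

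Imprinted genes, expressed from a single parental allele, split. Of 26 measured, 7 fell and 3 rose (median 0.10; quantile-normalized 0.015), and the falls were the larger. After Grb10 came Meg3, a maternally expressed long noncoding RNA, with 6.30 and 6.42 against 4.16 and 4.83 (3.63-fold). Phlda2 fell 2.78-fold, Sgce 2.76-fold, Ndn 2.66-fold, Impact 2.04-fold and Cdkn1c, which encodes the kinase inhibitor p57, 2.41-fold. Dlk1, the neighbour of Meg3, went the other way, with 3.65 and 3.88 against 4.56 and 4.85, a rise of 0.94 that did not pass without WT LMPP replicate 2 (adjusted p = 0.0595). Igf2r (0.89) and Snrpn (0.86) also rose, Igf2r not without WT LSK FLT3- replicate 2 (adjusted p = 0.0659), and Igf2 did not pass (0.35). Of the probe sets for Meg3, 2 passed as lower, 1 passed as higher and the others did not pass. Taken as the mean of all its probe sets, Meg3 did not pass (-0.275, adjusted p = 0.092). Of the Grb10 probe sets, 1 passed each way.

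Aldehyde dehydrogenase activity and dye efflux are used to purify stem cells. Aldh1a1 read 7.37 and 7.11 in WT LSK FLT3- and 3.37 and 2.96 in WT LMPP, and 7 of 20 aldehyde dehydrogenase genes fell with 2 rising. Abcg2, the transporter behind the dye-excluding side population, read 8.68 and 8.81 against 7.25 and 7.29 (2.78-fold, SE 0.13, adjusted p = 0.000128). Of 45 ABC transporter genes, 7 fell and 1 rose. Aldh2, at about 10 in each array, did not pass (-0.10, SE 0.13), nor did the efflux pump gene Abcb1a on deposited values (0.11), although it did after quantile normalization (0.51, adjusted p = 0.0219). Leaving out WT LSK FLT3- replicate 2 lowered the deposited count of falls from 9 to 5 for the dehydrogenases and from 13 to 5 for the transporters.

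In the TGF-beta and BMP pathway, which holds stem cells quiescent, 5 of 26 genes fell and 1 rose. The co-receptor Tgfbr3 read 7.92 and 8.05 in WT LSK FLT3- and 4.88 and 4.79 in WT LMPP (8.85-fold, SE 0.20, adjusted p = 2.83e-05). Both inhibitory SMADs passed, in opposite directions: Smad6, which blocks BMP signals, fell from 4.76 and 4.41 to 3.32 and 3.04, and Smad7, which blocks TGF-beta signals, rose from 6.19 and 6.34 to 7.17 and 7.02. The receptor-regulated Smad2 (-0.30) and Smad3 (-0.14) and the shared Smad4 (-0.23) did not pass. A second probe set of Tgfbr3 was higher in WT LMPP (0.61, adjusted p = 0.0201).

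Megakaryocyte and platelet genes were present in WT LSK FLT3- and lower in WT LMPP. Of 22 measured, 13 fell and 2 rose (median -0.73; quantile-normalized -0.74), and without WT LSK FLT3- replicate 1 or 2, 10 were lower. Vwf, von Willebrand factor, read 6.26 and 6.01 against 2.98 and 3.58 (7.24-fold). Itga2b, the integrin CD41, read 8.09 and 7.93 against 5.23 and 5.14 (7.07-fold). Pf4, the platelet chemokine, read 6.94 and 6.99 against 4.49 and 4.51 (5.53-fold). Of these 3 genes, Vwf lay below the array median in WT LMPP. Mmrn1, the platelet protein multimerin, fell 8.71-fold, Selp (P-selectin) 5.82-fold and F2r, the thrombin receptor, 3.38-fold. The platelet receptor genes Gp1bb (-0.04) and Gp6 (0.28) were near or below the array median in both fractions and did not pass. Cavin2 counted as a rise (0.88), but another of its probe sets read 6.17 in WT LSK FLT3- and 2.92 in WT LMPP, a fall of 3.26. Itgb3 likewise had a probe set that was higher (0.53, adjusted p = 0.037) beside its fall of 4.76-fold.

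Of 21 erythroid genes measured, 13 fell and 2 rose (median -1.29; quantile-normalized -1.10). On deposited values 13 were lower whichever of the 4 arrays was left out, while the 4 that were higher became 0 to 2. Gata1, the master regulator of the red cell and megakaryocyte lineages, read 7.36 and 7.40 against 5.28 and 5.37 (4.16-fold, SE 0.14, adjusted p = 3.88e-05). Klf1, which activates globin genes, read 7.11 and 7.01 against 5.07 and 4.99 (4.1-fold). Tfr2, the second transferrin receptor, read 10.05 and 9.85 against 6.78 and 6.74 (9.11-fold). The falls reached from regulators to membrane and enzyme genes, with Aqp1 at 8.1-fold, Hemgn at 6.45-fold, Ermap at 3.67-fold and Epor, the erythropoietin receptor, at 1.69-fold. Genes of terminal red cells lay below the array median in both fractions: Slc4a1, the band 3 anion exchanger, read 3.30 and 3.38 against 3.33 and 3.13, and Hba-a1, an alpha globin gene with a near-identical copy, 2.97 and 2.76 against 3.45 and 3.73. Hba-a1 (0.73) counted as a rise and did not pass without WT LSK FLT3- replicate 2 (adjusted p = 0.0874). The other rise was Tfrc, the transferrin receptor of dividing cells, which was higher by 0.52 and did not pass without WT LMPP replicate 2 (adjusted p = 0.0737).

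Of 15 mast cell and basophil genes measured, 5 fell and 1 rose. Among the 25 largest falls of the comparison were Slc18a2 and Cpa3 (7.36 and 7.26 against 3.41 and 3.72). The other falls were Mcpt8, a basophil protease (4.35-fold), Ms4a2, the beta chain of the IgE receptor (3.12-fold), and Mitf (2.61-fold). The alpha chain of the IgE receptor, Fcer1a, read 2.99 and 2.94 against 2.74 and 2.94, below the median in each array, and the mast cell protease Cma1 did not pass (-0.08). The list summed to 735 and 767 in linear units on the WT LSK FLT3- arrays and 297 and 287 on the WT LMPP arrays. Hdc, which makes histamine, counted as a rise (0.49), whereas its second probe set was lower in WT LMPP (-2.68, adjusted p = 0.000103). Whether mast cell precursors in the sort had a part in these values was not tested.

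**Figure D3:**
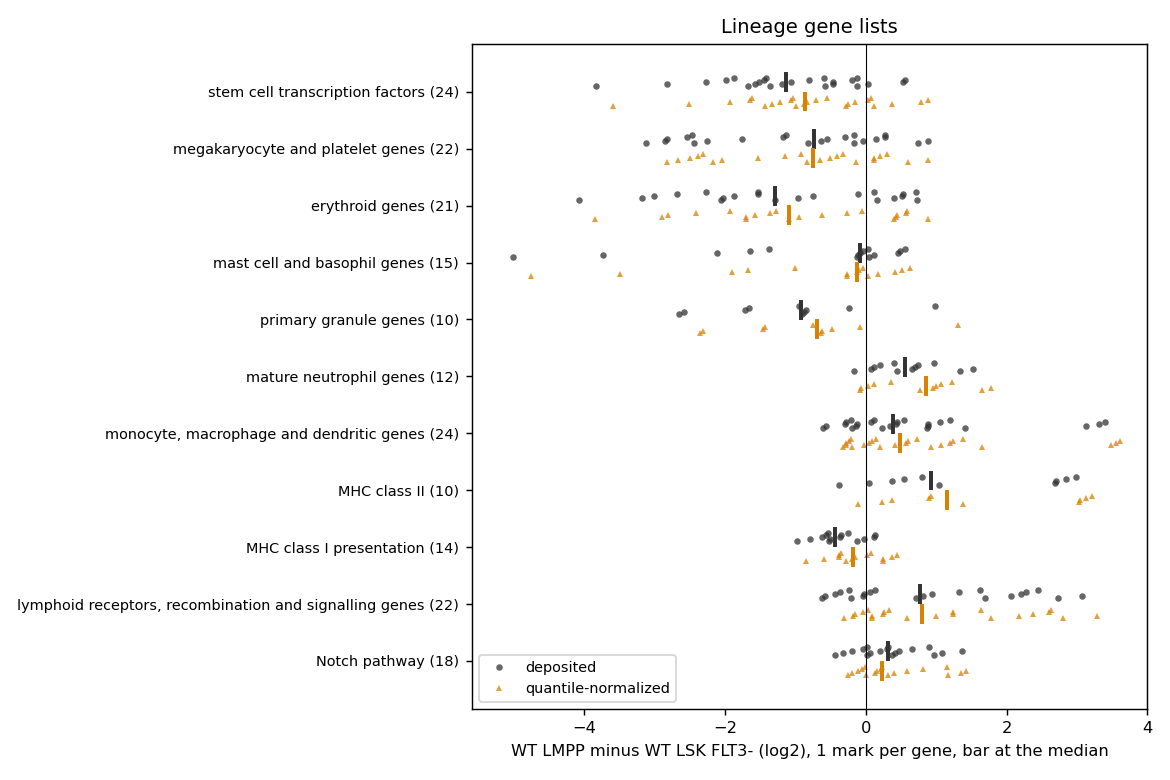
Differences between WT LMPP and WT LSK FLT3- (log2, x axis) for the measured members of lineage gene lists, 1 mark per gene, with deposited values as circles, quantile-normalized values as triangles and bars at the medians. Stem cell factors, erythroid, megakaryocyte and primary granule genes have medians below 0 on both scales, and lymphoid receptor, MHC class II, monocyte and mature neutrophil genes above 0.

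On the lymphoid side, receptors, recombination and signalling genes rose in 12 of 22 cases and fell in 0 (median 0.76; quantile-normalized 0.79). On deposited values 3 members, Jak1, Btk and Ltb, were lower, and after quantile normalization none of the list was (0 genes). Dntt, the template-independent polymerase of antigen receptor joining, read 10.40 and 10.44 in WT LSK FLT3- and 12.87 on both WT LMPP arrays (5.46-fold, SE 0.12, adjusted p = 7.6e-06). Dntt was thus already bright in the stem cell fraction. Rag2, a subunit of the recombinase, read 4.62 and 4.53 against 6.61 and 6.68 (4.19-fold), and Rag1, its partner, 4.02 and 3.93 against 5.28 and 5.91 (3.06-fold). Ccr9, a receptor that guides cells to the thymus, read 4.52 and 3.94 against 6.90 and 7.02 (6.63-fold), and Ccr7, with the same role, 3.26 and 3.37 against 5.07 and 4.2. The recombinase and thymus-homing genes thus started near the array median. Blnk, the B cell linker, rose 3.22-fold, Cnn3 4.82-fold, Arpp21 4.62-fold and Cxcr4 1.91-fold. Of the parts of the B cell receptor, Igll1, a surrogate light chain, rose by 0.81 and Cd79a by 0.72, while Vpreb1 (-0.25), Vpreb3 (0.13) and Cd79b (-0.21) did not pass.

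Lymphoid transcription factors were mixed, with 7 of 23 rising and 3 falling. On deposited values 8 were higher, and 4 without WT LSK FLT3- replicate 1 or 2. Irf8, which guides dendritic, monocyte and B cell fates, read 7.44 and 7.37 against 9.25 and 9.42 (3.81-fold, SE 0.13, adjusted p = 4.25e-05). Satb1, a chromatin organiser of early lymphoid cells, read 9.73 and 9.82 against 11.09 and 11.12 (2.51-fold, SE 0.13, adjusted p = 0.0002), with all 5 of its probe sets higher. Foxp1 (1.66-fold) and Mef2c (1.58-fold) also rose. Ikzf1, encoding Ikaros, was bright in both fractions and differed by 0.53, a rise that did not pass without WT LSK FLT3- replicate 1 (adjusted p = 0.0809), and Ets1 (0.82) did not pass without it either (adjusted p = 0.075). Ebf1, the B lineage determinant, read 2.93 and 2.93 against 3.61 and 3.89, below the array median in both fractions, and Pax5 did not pass (0.65, adjusted p = 0.0764). Of the 3 that fell, Ikzf2, a relative of Ikaros, went from 9.34 and 9.29 to 8.05 and 8.16 and Bcl11b, the T lineage determinant, from 5.20 and 4.76 to 4.03 and 3.46. Gata3 was the other (-0.56) and did not pass without WT LSK FLT3- replicate 1 or 2.

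The E proteins, helix-loop-helix activators of lymphoid genes, and the Id proteins that inhibit them gave 2 rises and 1 fall among 7 genes. Tcf4, which encodes E2-2, read 8.79 and 8.86 against 9.83 and 10.13 (2.23-fold, SE 0.15, adjusted p = 0.000837). Id2 read 6.21 and 6.11 against 7.83 and 7.65 (2.99-fold, SE 0.21, adjusted p = 0.00102). An activator and an inhibitor of the same family were therefore both higher in WT LMPP. Tcf12, which encodes HEB, fell from 10.02 and 10.03 to 9.06 and 9.32 (1.78-fold). Tcf3, the gene that encodes E2A, was lower on deposited values (-0.44, adjusted p = 0.0417) and did not pass after quantile normalization (-0.05, adjusted p = 0.863). Id1 (0.30), Id3 (0.18) and Id4 (0.34) did not pass.

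In the Notch pathway, required for the T cell fate, 6 of 18 genes rose and 0 fell. Notch1 read 9.27 and 9.22 against 10.39 and 10.28 (2.12-fold, SE 0.15, adjusted p = 0.000997), and Notch2 9.41 and 9.28 against 10.05 and 10.45 (1.87-fold). Lfng, which sugar-modifies Notch receptors, read 4.27 and 4.35 against 5.78 and 5.58 (2.59-fold). The Deltex genes Dtx1 (0.66) and Dtx4 (0.97) and the feedback inhibitor gene Nrarp (0.41) also rose. Hes1, the classical target, read 4.24 and 4.58 against 4.46 and 4.39 and did not pass (0.01, SE 0.17), nor did Hey1 (-0.20) or the transcription partner Rbpj (-0.33). Without WT LSK FLT3- replicate 1 or 2, 3 of the 18 genes were higher; Dtx4 then had an adjusted p of 0.051 or 0.0792.

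The Gimap family of lymphocyte GTPases, a cluster of neighbouring genes, gave 3 falls and 1 rise among 8 genes, and 4 did not pass after quantile normalization. Gimap8 read 9.94 and 9.74 against 8.21 and 8.58 (2.72-fold), and Gimap1 (-1.16) and Gimap5 (-1.11) fell with it. Gimap7 rose from 5.10 and 5.17 to 5.93 and 5.90 (1.71-fold).

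Of 10 MHC class II genes, which present antigen to CD4 T cells, 7 rose and 0 fell (median 0.92; quantile-normalized 1.15), and 5 of the 7 rose at least 2-fold on both scales. Cd74, the invariant chain, read 5.47 and 5.47 against 8.49 and 8.44 (7.96-fold, SE 0.14, adjusted p = 5.92e-06). H2-Eb1 read 5.74 and 5.98 against 8.63 and 8.78 (7.19-fold), and H2-Ab1 6.24 and 6.23 against 9.01 and 8.86 (6.52-fold). H2-Aa, the alpha chain, read 7.29 and 7.82 against 10.38 and 10.12 (6.46-fold), with all 4 of its probe sets higher. The chains of the class II molecule and its chaperone thus rose by like amounts. H2-Ob (2.06-fold), H2-DMb2 (1.74-fold) and H2-Oa (1.46-fold), which load peptide or restrain loading, also rose, and H2-DMa did not pass (0.05, SE 0.13). The class II transactivator Ciita read 3.30 and 3.63 against 3.77 and 3.91 and did not pass (0.38, adjusted p = 0.096), and Rfx5, whose product binds class II promoters, was lower on deposited values only (-0.39, adjusted p = 0.0489). Leaving out any of the 4 arrays left 6 of the 10 genes higher.

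Of 14 genes of presentation by MHC class I, present on nearly all cells, 0 rose and 2 fell, where 9.85% of all genes fell: H2-D1 from 11.65 and 11.77 to 10.75 and 10.71 (1.98-fold) and H2-K1 from 11.09 and 11.27 to 10.38 and 10.40 (1.73-fold). On deposited values 8 were lower, among them the light chain B2m (-0.37, adjusted p = 0.0485), which did not pass after quantile normalization (-0.39, adjusted p = 0.065). Without WT LSK FLT3- replicate 1 or 2, that count of 8 was 2, and without WT LMPP replicate 1 it was 5. The genes H2-D1 and H2-K1 are near-identical to other class I genes, and cross-hybridisation was not tested.

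Genes of monocytes, macrophages and dendritic cells rose in 10 of 24 cases and fell in 0 (median 0.39; quantile-normalized 0.49). Beside Plbd1, Wfdc17 and Mpeg1, the lysosomal protease gene Ctss, whose product trims the invariant chain, read 9.33 and 9.26 against 10.63 and 10.77 (2.65-fold, SE 0.14, adjusted p = 0.000242). Ccr2, the chemokine receptor of monocytes, read 4.96 and 5.14 against 6.34 and 6.14 (2.29-fold). Csf1r, the macrophage growth factor receptor, read 7.94 and 7.74 against 8.81 and 8.64 (1.84-fold). Markers of mature cells went different ways. Itgax, which encodes the CD11c of dendritic cells, rose from 3.97 and 4.42 to 5.44 and 5.05 (2.07-fold). Aif1, of macrophages, rose from 3.10 and 3.0 to 3.71 and 4.14 (1.83-fold). Aif1 was dim, below the array median in WT LSK FLT3- and near it in WT LMPP. Siglech, a marker of plasmacytoid dendritic cells, was higher on deposited values only (0.44, adjusted p = 0.0317; quantile-normalized 0.41, adjusted p = 0.0619). Others did not pass and were dim: Itgam read 2.75 and 3.0 against 2.81 and 2.64, Cd14 3.87 and 3.82 against 3.95 and 3.35 and Adgre1 3.80 and 4.01 against 4.16 and 4.11. Lyz2, at about 8 in each array, did not pass either (-0.28, SE 0.14).

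Granule genes of the neutrophil lineage were taken as 2 lists. Of 10 genes of the primary granules, which form at the promyelocyte step, 7 fell and 1 rose (median -0.93; quantile-normalized -0.70). Elane, neutrophil elastase, read 6.95 and 7.5 in WT LSK FLT3- and 4.48 and 4.68 in WT LMPP (6.28-fold, SE 0.19, adjusted p = 4.69e-05). Prtn3, proteinase 3, read 11.01 and 11.14 against 9.41 and 9.42 (3.16-fold), and Mpo, myeloperoxidase, 11.36 and 11.58 against 10.61 and 10.51 (1.88-fold). Mpo and Prtn3 thus stayed bright in both fractions, while Elane came close to the median in WT LMPP. Ctsg, cathepsin G, fell 3.3-fold and Ms4a3 6.02-fold; Cst7, an inhibitor of cathepsins, rose (1.97-fold) but not without WT LSK FLT3- replicate 1 (adjusted p = 0.0532). Of 12 genes of mature neutrophils, including those of the later granules, 6 rose and 0 fell (median 0.55; quantile-normalized 0.86). Camp, cathelicidin, read 5.26 and 5.63 against 7.01 and 6.92 (2.88-fold, SE 0.21, adjusted p = 0.00108), Ltf, lactoferrin, 6.10 and 5.99 against 7.37 and 7.40 (2.53-fold), and Ngp 9.44 and 9.25 against 10.31 and 10.32 (1.95-fold). The gelatinase granule gene Mmp8 did not pass (0.20) and lay near the median. The mature neutrophil list summed to 3031 and 3042 in linear units in WT LMPP and 1808 and 1688 in WT LSK FLT3-, and the part of neutrophil RNA in this was not tested. Without WT LSK FLT3- replicate 1, 3 of its genes were higher, and without replicate 2, 4.

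Of 11 Toll-like receptor genes, which encode sensors of microbial products, 2 rose and 2 fell. Both rises were in endosomal receptors for RNA, Tlr3 from 4.07 and 4.31 to 5.75 and 6.24 (3.5-fold) and Tlr7 from 4.46 and 4.31 to 6.33 and 6.09 (3.55-fold). Of the other endosomal RNA sensors, Tlr8 was higher on deposited values only (0.65, adjusted p = 0.0373; quantile-normalized 0.52, adjusted p = 0.132) and Tlr13 did not pass (-0.15). The surface receptor for lipopolysaccharide, Tlr4, fell from 6.61 and 6.85 to 5.07 and 5.46 (2.76-fold). Tlr2, also on the surface, was lower on deposited values (-0.77, adjusted p = 0.0114) but did not pass after quantile normalization (-0.50, adjusted p = 0.0967), and Tlr9 passed only after it (0.56, adjusted p = 0.0475). The surface receptor genes Tlr1 (-0.09) and Tlr5 (0.14) did not pass. The other fall was Tlr6 (-0.48), which did not pass in a fit of the 4 wild-type arrays alone. On deposited values 3 were lower, and 1 without WT LSK FLT3- replicate 1 or 2.

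Among 12 myeloid transcription factors, 3 rose (Irf8, Klf4 and Nfil3) and 1 fell. Maf fell from 6.67 and 6.64 to 4.84 and 4.87 (3.48-fold, SE 0.15, adjusted p = 9.41e-05). Neither Spi1, encoding PU.1 (0.08, SE 0.15), nor Cebpa (-0.04, SE 0.14) passed. The rises of Klf4 (0.89) and Nfil3 (0.79) did not pass without WT LSK FLT3- replicate 2 (Klf4 adjusted p = 0.0991). On deposited values 3 were higher and 3 lower, and 1 in each direction without WT LSK FLT3- replicate 2. Of 28 growth factor and cytokine receptors, 6 rose and 5 fell; 7 were higher on deposited values, and 4 without WT LSK FLT3- replicate 1 or 2. Ghr, the growth hormone receptor, read 6.30 and 6.12 against 3.12 and 2.81 (9.48-fold), with 1 of its other probe sets higher (0.56, adjusted p = 0.0177). Il1r1, the interleukin 1 receptor, rose by 1.09, and Csf2rb2, a beta chain for interleukin 3, fell by 1.54.

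Genes of other cell types that a gate could let through were dim only in part. Below the array median in both fractions were 7 of 15 plasma and mature B cell genes and 9 of 17 T and NK cell genes. The same held for 3 of 16 endothelial and 7 of 12 marrow stroma genes. In the lists above it held for 5 of 15 mast cell and basophil genes and 1 of 12 mature neutrophil genes. Low levels are common among all genes. Of 5 level classes of about equal size, the second dimmest reached a mean of 4.13, near the array medians. The list counts were not set against the share of all genes below the median. In the plasma and mature B cell list, which summed to 3600 and 3499 in linear units in WT LSK FLT3- and 2123 and 2219 in WT LMPP, 3 of 15 fell: Igha, Jchain and Xbp1, a factor of secretory cells (1.74-fold). Other plasma cell genes did not fall: Mzb1 read 4.80 and 4.6 against 5.16 and 5.03, Prdm1 3.52 and 3.52 against 3.45 and 3.28, and Sdc1, which encodes CD138, rose from 5.48 and 5.61 to 7.04 and 7.15 (2.92-fold). Of 11 probe sets for Ighm, the heavy chain of IgM, 3 passed as higher and 4 as lower, so its rise of 0.66 has no settled direction. T and NK cell genes summed to 298 and 310 against 245 and 244 over 17 genes, of which 3 rose, and 0 were higher without WT LSK FLT3- replicate 1 or 2. Of 16 endothelial genes, 4 fell and 1, Sox17, rose. The falls were in Tek, Esam, Vwf and Tie1 (-1.5), the first 3 of which are also in the stem cell or megakaryocyte lists. Cdh5 and Pecam1 were between 3.34 and 3.99 in every array. Of 12 marrow stroma genes, 2 fell, Vcam1 and the collagen gene Col1a2 (5.84 and 5.64 against 3.92 and 4.0). In the same list 1 gene, Sparc, rose, by at least 2-fold on both scales. The part of such cells in the results was not tested.

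**Figure D4:**
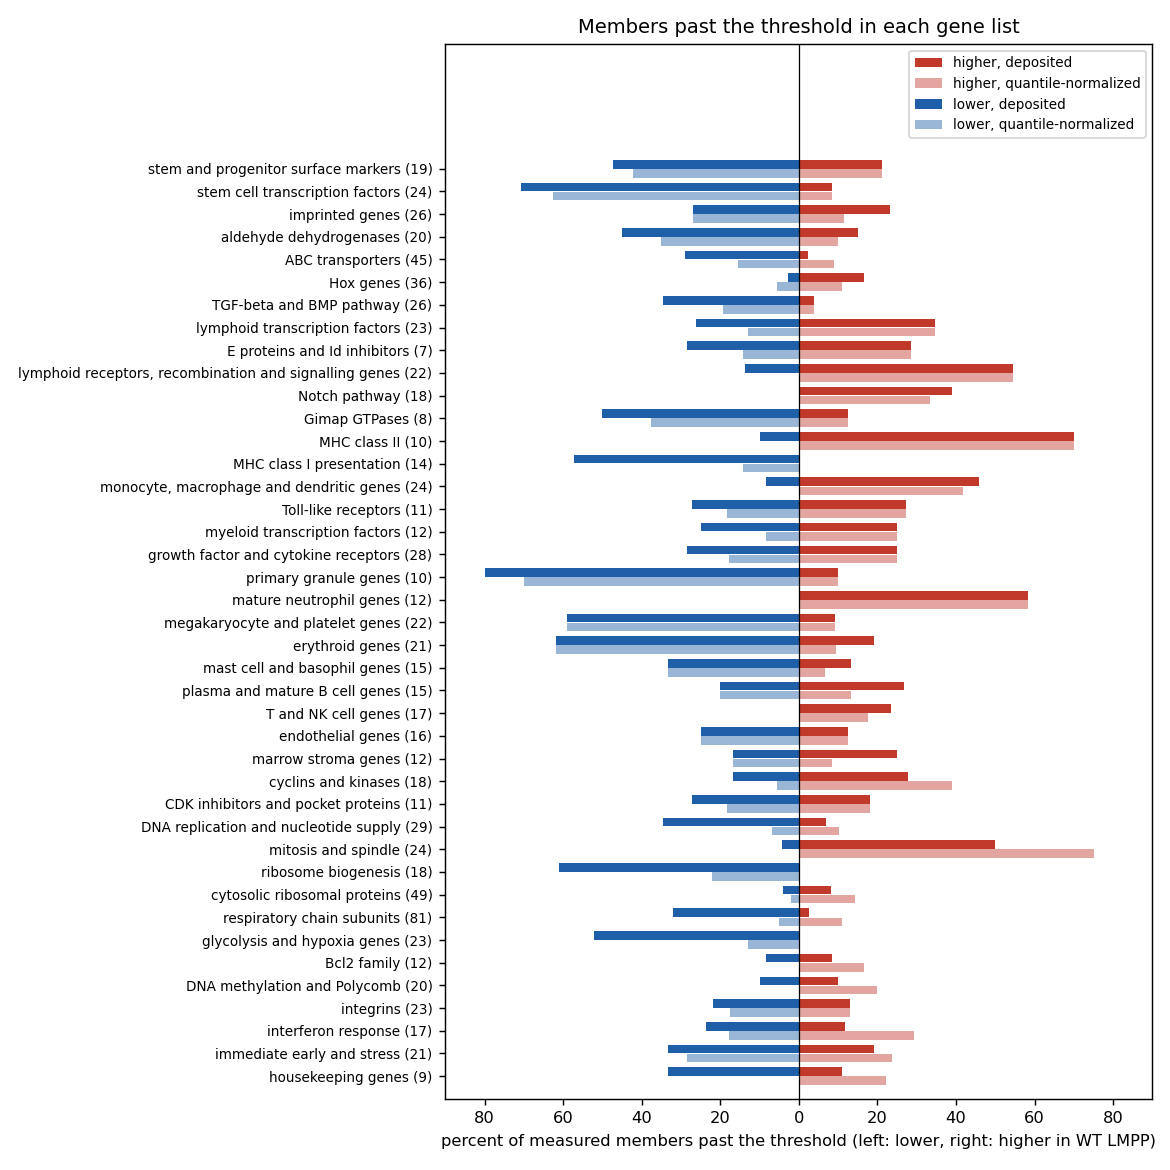
Percent of the measured members of each gene list that passed an adjusted p of 0.05, lower in WT LMPP to the left and higher to the right, on deposited (dark) and quantile-normalized (light) values; the number of measured members is in parentheses. MHC class II and lymphoid receptor bars to the right and erythroid and megakaryocyte bars to the left keep their length on both scales, while bars to the left for the respiratory chain, ribosome biogenesis and MHC class I shrink after quantile normalization.

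Of 24 mitosis and spindle genes, 12 rose and 0 fell; 12 were higher on deposited values (median 0.38) and 18 after quantile normalization (median 0.72). Bub1b, a spindle checkpoint kinase, read 9.05 and 8.89 against 9.82 and 9.92 (1.86-fold, SE 0.13, adjusted p = 0.00154). Ttk, another checkpoint kinase, read 6.33 and 6.48 against 7.26 and 7.19 (1.76-fold), and Mki67, the proliferation antigen, 11.33 and 11.32 against 11.91 and 11.96 (1.53-fold). These 3 differences are under 2-fold. Of the cyclins and kinases, 5 of 18 rose, among them Cdc25c, a phosphatase that starts mitosis (6.10 and 6.06 against 7.23 and 7.28, 2.26-fold), and E2f2 (1.77-fold). Ccne2, a cyclin of S phase entry, fell from 7.79 and 7.39 to 6.14 and 6.19 (2.69-fold). The kinase genes Cdk6 (-0.11) and Cdk4 (0.26) did not pass on deposited values, and Cdk4 did after quantile normalization (0.50, adjusted p = 0.0375). Without WT LSK FLT3- replicate 1 or 2, 2 of the cyclin and kinase genes were higher, Ccna2 and Ccnd1 no longer passing, and 4 or 5 mitotic genes; Plk1 (0.62) then had an adjusted p of 0.0806 or 0.0635.

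Of 29 DNA replication genes measured, 2 rose and 2 fell, where 5.91% of all genes rose and 9.85% fell. The median of the list changed sign with the scale, from -0.20 on deposited to 0.04 on quantile-normalized values. On deposited values 10 were lower and without WT LSK FLT3- replicate 1 or 2, 2 or 3 were; without WT LMPP replicate 2, 6 were. Mcm2, a subunit of the replicative helicase, read 10.23 and 10.18 against 9.60 and 9.31 (1.68-fold) and Pola1, the catalytic subunit of the primase polymerase, 9.18 and 8.97 against 8.10 and 8.27 (1.85-fold). The fall of Mcm2 did not pass without WT LSK FLT3- replicate 1 (adjusted p = 0.0571). Pcna, the sliding clamp, did not pass (-0.13, SE 0.15), nor did Mcm5 (-0.27, SE 0.14), and Rrm2, a ribonucleotide reductase subunit, rose by 0.53 but not without WT LSK FLT3- replicate 1 (adjusted p = 0.0815). The difference between the mitotic and the replication genes was itself not tested.

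Inhibitors of the cell cycle were lower in 2 of 11 cases and higher in 1. Cdkn1c, which keeps stem cells quiescent, read 5.45 and 5.82 against 4.19 and 4.54 (2.41-fold, SE 0.17, adjusted p = 0.00108). Rbl2, the pocket protein p130 of resting cells, read 7.77 and 7.78 against 6.76 and 7.01 (1.85-fold). Cdkn1b, encoding p27, was lower on deposited values only (-0.52, adjusted p = 0.0393; quantile-normalized -0.11, adjusted p = 0.68), and Cdkn1a, encoding p21, was higher after quantile normalization only (0.62, adjusted p = 0.0112).

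**Figure D5:**
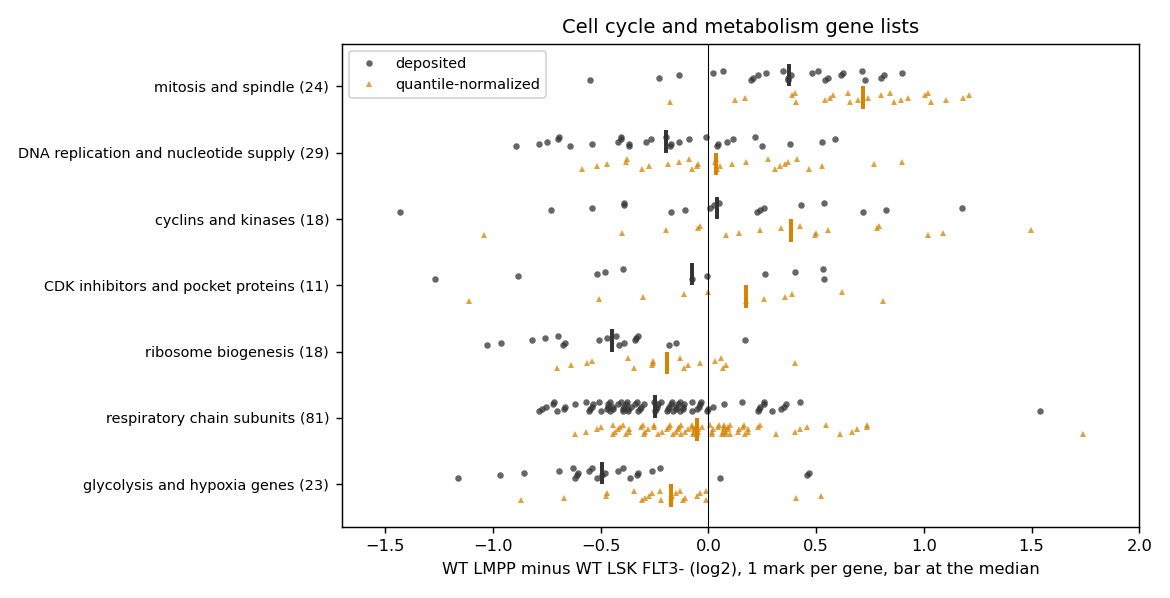
Differences between WT LMPP and WT LSK FLT3- (log2, x axis) for cell cycle and metabolism gene lists, 1 mark per gene, with deposited values as circles, quantile-normalized values as triangles and bars at the medians. Of 24 mitotic genes, 21 lie above 0 on deposited and 23 on quantile-normalized values, and the medians of ribosome biogenesis, respiratory chain and glycolysis genes lie below 0 and move towards it after quantile normalization.

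Growth and energy genes depended on the scale for most of their calls. Of 18 ribosome biogenesis genes, 11 were lower on deposited values, 4 fell on both and 0 rose: Fbl, the nucleolar methyltransferase fibrillarin (9.97 and 10.15 against 9.14 and 9.07), Ncl, nucleolin (1.62-fold), Polr1b, an RNA polymerase I subunit (2.04-fold), and Gar1 (-0.82). Of 81 respiratory chain genes, 26 were lower and 2 higher on deposited values (median -0.25). After quantile normalization 4 were lower and 9 higher (median -0.05), so the balance of calls turned with the scale. The falls on both scales included Uqcrc2 of complex III (1.71-fold) and Ndufb5 of complex I (1.73-fold), and the muscle isoform Cox6a2 rose from 5.18 and 5.11 to 6.94 and 6.43 (2.9-fold). Of 23 glycolysis and hypoxia genes, 12 were lower on deposited values, 3 fell on both and 0 rose: the glucose transporter gene Slc2a3 (9.40 and 9.46 against 8.34 and 8.20), Hk1, hexokinase 1 (1.95-fold), and Pdk3, a brake on pyruvate oxidation (1.81-fold). Myc was lower on deposited values only (-0.41, adjusted p = 0.0373; quantile-normalized -0.09, adjusted p = 0.665). Leaving out 1 of the 4 arrays gave deposited counts of lower genes of 5 to 10 for ribosome biogenesis, 5 to 19 for the respiratory chain and 3 to 11 for glycolysis, with 6, 5 and 3 without WT LSK FLT3- replicate 1 and 5, 6 and 3 without replicate 2. Without WT LMPP replicate 1 they were 7, 15 and 8.

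Cytosolic ribosomal protein genes gave 4 rises and 1 fall among 49 genes, with medians of -0.07 and 0.00 on deposited and quantile-normalized values. Of all genes, 5.91% rose and 9.85% fell, and the counts of each list in this paragraph are to be read against these shares. The 2 largest rises were Rpl27a (7.43 and 7.34 against 8.58 and 8.69) and Rps15 (10.72 and 10.92 against 11.94 and 11.85). Of 20 DNA methylation and Polycomb genes, 2 rose: Tet3 (0.74) and Ezh2, the histone H3 methyltransferase (1.44-fold), the latter not without WT LSK FLT3- replicate 1 (adjusted p = 0.0826). In the Bcl2 family, 1 of 12 rose, the pro-death gene Bmf (0.66), and it did not pass without that array (adjusted p = 0.0511); Bcl2 passed only after quantile normalization (0.51, adjusted p = 0.0233). Of 9 housekeeping genes, 1 rose, Polr2a (0.64), which did not pass without WT LSK FLT3- replicate 1, and Gapdh (-0.22) and Actb (-0.26) did not pass. An Actb probe set stood apart, with a mean of 6.40 in WT LSK FLT3- and 9.33 in WT LMPP (2.93, adjusted p = 1.8e-05), while the probe set towards the 5′ end of the transcript was lower (-0.68, adjusted p = 0.00711).

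Integrins and their partners gave 4 falls and 2 rises among 23 genes, where 9.85% of all genes fell and 5.91% rose. Itga6, a laminin receptor subunit, read 8.48 and 8.43 against 6.80 and 6.73 (3.23-fold, SE 0.12, adjusted p = 5.43e-05), and Itgb7, a subunit of the gut-homing integrin, rose from 6.24 and 6.32 to 7.16 and 6.94 (1.7-fold). Interferon response genes went both ways, 2 of 17 rising and 3 falling. Ifit1 fell from 6.44 and 6.45 to 5.16 and 5.09 (2.49-fold) and Isg20 2.37-fold, whereas Ifit3 (0.89) and Ifi27l2a (1.25) rose. Immediate early and stress genes, which respond to handling as well as to signals, fell in 6 of 21 cases and rose in 4. Ier2 read 7.56 and 7.64 against 5.83 and 6.49 (2.72-fold), Dusp1 7.61 and 7.20 against 6.2 and 6.03 (2.44-fold) and Egr1 6.99 and 7.14 against 6.07 and 6.2 (1.91-fold). Fos (-0.46), Jun (0.02) and Junb (-0.45) did not pass, and Btg2 (0.91) and Klf2 (0.71) rose, neither without WT LSK FLT3- replicate 1.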

How the data were processed

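RNA was measured on 6 Affymetrix 3' arrays of sorted mouse bone marrow cells, 2 per group, grouped by title; the description field names WT LMPP for all 6 samples, against the titles and source names of the other groups, and was not used. The deposited table holds 1 linear intensity per probe set and array, made by the authors with RMA per the submitters' processing notes; its version, and whether all arrays were normalized in 1 run, are not given in the sources used here. RMA adjusts the background, puts arrays on a common distribution and summarises probes, yet the deposited distributions differ between fractions. Amplification from the 3' end can make a change of transcript end read as a change of level. Precision is limited by the number of arrays, and low values, around the probe set medians of 4.01 (WT LMPP mean) and 3.90 (WT LSK FLT3- mean) on the log2 scale, are compressed.

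Log2 was taken of the deposited intensity values. Of 45101 probe sets, 34958 had 1 symbol in the platform annotation, 932 several and 9211 none; each of 18194 genes was represented by its probe set with the highest mean over the 6 arrays, and 18033 matched the RefSeq gene table of GRCm38.p6 by Entrez ID. Tests used limma 3.58.1 in R 4.3.3 with 1 mean per group over all 6 arrays (3 residual and 5.8 prior degrees of freedom), two-sided, with Benjamini-Hochberg adjustment over all genes and a threshold of 0.05. The same fit was made after quantile normalization. Folds are 2 to the power of the difference. No sample was dropped or imputed.

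The comparison, the 42 gene lists and the markers were chosen with earlier results of these data known. Of their 653 entries, 48 matched no tested gene and were not analysed here. Genes were named by a rule: the first 4 measured members of each list, up to 4 of its largest rises and 4 of its largest falls on both scales, and the 25 largest rises and 25 largest falls without overlap; other named genes were chosen after their values were seen. The test was checked on simulated data for this comparison (18000 probe sets, 200 changed, 10 simulations). It recovered 13.4% of changes of 0.5 (log2), 95.2% of 1 and 100% of 2. Of the calls, 8.18% were false, more than the threshold of 0.05 aims at. The simulation had normal noise and no shift by level, and far fewer changes than the 34.1% of genes that passed here. Its rates therefore need not hold for the real comparison. The replicate numbers did not pair samples. Plots used Python 3.11.15 with matplotlib 3.10.9.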

Additional observations from a re-analysis of the deposited data

How the results depend on the processing

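The count of genes past the threshold, 6198 on deposited values, was 3496 after quantile normalization and 3677 after quantile normalization with the 4 wild-type arrays only (chosen after seeing the data), 10648 with every probe set as the unit, 3013 at an adjusted p of 0.01 and 1214 with a 2-fold minimum; fewer genes meet the last 2 rules by construction, and more units were tested with every probe set. Leaving out an array gave 2370 to 5612 genes, the lowest without WT LSK FLT3- replicate 1 and then replicate 2 (2449). It was 5595 to 6760 under the other alternatives: 4 wild-type arrays, median centring, mean of probe sets, a variance trend with robust estimation, the dimmest 40% left out and the replicate block. With the replicate number as a block, 5914 genes passed; the numbers did not pair the samples (correlations of 0.023, -0.022 and -0.042).

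Of 316 named genes, 203 kept their call (higher, lower or not passed) under all alternatives, and 220 passed on both scales in the same direction. A gene that did not pass counts as kept even where its sign changed, such as Rian (0.08, quantile-normalized -0.04). Because many genes were named for passing on both scales, these counts do not measure how stable the calls of all genes are. Of all genes called on deposited values, 46.3% passed on both scales in the same direction. Among named genes that were called, direction reversed only where a gene was represented by the mean over its probe sets. These were 5 genes: Cavin2 (-0.959), Ccnd3 (0.125), Hdc (-1.094), Ighm (-0.197) and Uhrf1 (-0.081). Each of them has probe sets that passed in opposite directions. Without WT LSK FLT3- replicate 1, 59 named genes no longer passed, and without replicate 2, 62.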

Other observations

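Probe sets that name no single gene also differed. Of 9211 probe sets without a symbol, 999 were higher and 408 lower in WT LMPP on deposited values. Of 932 with several symbols, 72 were higher and 145 lower. Among all 45101 probe sets, 3648 were higher and 7000 lower. These counts were made on deposited values only. There, 92.7% of called genes in the dimmest level class were higher, against 49.4% after quantile normalization. The part of level in the counts of unnamed probe sets was not tested. Of 9012 genes with more than 1 probe set, 299 had probe sets that passed in opposite directions, and 17 of these are among the named genes.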
